A study of Danio rerio with 2 samples.

Results

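The digestive enzyme genes of the exocrine pancreas were examined in RNA of whole zebrafish embryos. The 10 genes were chosen by name (ctrb1, prss1, prss59.1, prss59.2, cpa1, cpa5, cpb1, ela2, ela2l and cel.1) from the 23809 genes of the deposited table. Earlier results of these data were known at that choice, so the shares of all genes given below are descriptions and not tests. For 9 of them the symbol in the table was the name itself, and prss1 was found through its gene identifier, ENSDARG00000042993, under its older symbol try. Poly-A RNA was sequenced from 1 library of embryos exposed to the triazole fungicide cyproconazole at 20 µM, starting 4 hours after fertilization and ending on day 3, and from 1 library of untreated control embryos of day 3. Each library held RNA of 40 pooled embryos. Embryos of both groups had the genotype SAGFF(LF)53A mitfab692/+, that is, 1 mutant copy of the pigment cell gene mitfa and an element, SAGFF(LF)53A, which the labels do not explain. The series as a whole addresses genes of fat-cell and bone-cell formation. Neither group has a replicate, so every ratio below compares these 2 libraries rather than the conditions.

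Acinar cells of the exocrine pancreas make digestive enzymes, mostly as inactive precursors called zymogens, and release them through ducts into the gut. Trypsin, chymotrypsin and elastase are serine proteases that cut inside proteins, carboxypeptidases remove amino acids from the protein end, and lipases and amylase act on fat and starch. In the zebrafish embryo the acinar cells differentiate under the transcription factor Ptf1a, and the enzyme genes come on before the larva feeds. Their transcripts become far more abundant in the feeding larva.

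Most digestive enzyme genes with enough reads to compare were lower in the cyproconazole library, most clearly the chymotrypsinogen gene ctrb1 and the trypsinogen gene prss59.2. The lipase gene cel.1 had a lower ratio still, from fewer reads. It had enough reads to compare through the control library alone, where it is high, so no conclusion is drawn from it. The adjacent gene prss59.1 had more reads in the cyproconazole library, and the split of reads between prss59.1 and prss59.2 is uncertain. Together these 2 genes had a read ratio of 0.622, scaled to depth. Summed over all 10 genes the level was 47.2 FPKM (fragments per kilobase of transcript, relative to library size) in the cyproconazole library and 70.8 FPKM in the control library, a ratio of 0.666. Whole reads, which could be worked out from the table's columns of mean counts, summed to 907 in the cyproconazole library and 1180 in the control library for these genes. Scaled to depth the read ratio was 0.668, with a 95% exact binomial interval of 0.612 to 0.729. Here and below such an interval covers counting error only. Library depth was 20726375 reads in genes for the cyproconazole library and 18067935 for the control library. The RNA came from whole embryos, so fewer acinar cells and less enzyme RNA per acinar cell cannot be told apart.

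**Figure D1:**
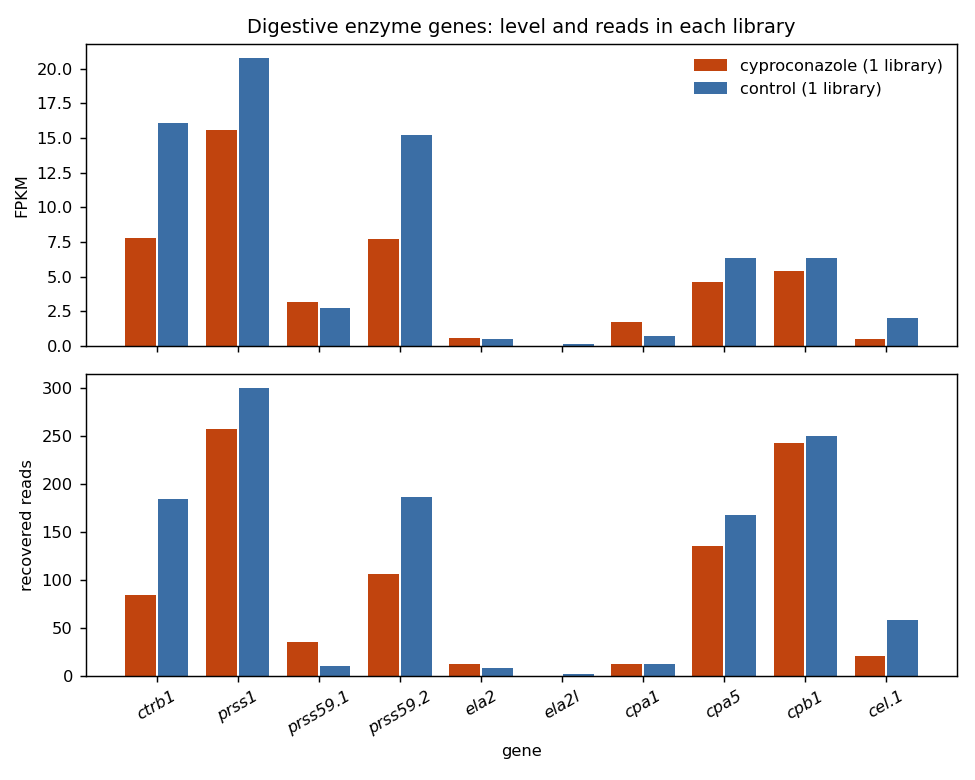
Level in FPKM (upper panel) and recovered reads (lower panel) of the 10 digestive enzyme genes on linear axes, with the cyproconazole library left of the control library for each gene and no replicates. The gap is widest in level for ctrb1 and prss59.2, while cpb1 has 243 and 250 reads, and ela2, ela2l and cpa1 have at most 12 reads in either library.

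All 10 genes were expressed at low or moderate levels. The highest was prss1, with 15.6 FPKM in the cyproconazole library and 20.7 FPKM in the control library, above 80.4% and 85.5% of the genes listed above 0 in both. The order by level in the cyproconazole library was prss1, ctrb1, prss59.2, cpb1, cpa5, prss59.1, cpa1, ela2, cel.1 and ela2l. The control library had the same first 3 genes, with cpa5 above cpb1 by 6.36 against 6.31 FPKM and cel.1 above cpa1. Next to each other in this order by level, ctrb1 and prss59.2 were close in both libraries. They were at 7.81 and 7.70 FPKM in the cyproconazole library and 16.1 and 15.2 FPKM in the control library. Between them prss1, ctrb1 and prss59.2 made up most of the summed level in either library, with 33.0%, 16.6% and 16.3% of it in the cyproconazole library and 29.3%, 22.7% and 21.5% in the control library.

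Genes were compared on the log2(FPKM + 1) scale, which understates the change of low genes, if neither library listed them at 0 and both libraries together had at least 50 reads. Of the 10 enzyme genes, 6 met this and 4 (prss59.1, cpa1, ela2 and ela2l) did not. Of the 6, 3 were lower by 1.5-fold or more in the cyproconazole library and 0 higher by as much, where 1.71% and 1.58% of all 18621 genes compared were. Their median difference was -0.64, beside 0.02 for all genes compared. One of the 3, cel.1, passed the minimum of 50 reads through the control library alone, where it is high. The other 5 had at least 50 reads in each library, and of these 2 were lower by 1.5-fold and 0 higher, with a median of -0.39, where 1.47% and 1.2% of the 16558 genes with as many reads in each library were. With at least 200 reads over both libraries the count was also 2. By read ratio the count was again 3 lower and 0 higher of 6, against 3.13% and 2.86% of 18633 genes and against 4.46% and 4.34% of the 7469 genes with 79 to 558 reads, the range of the 6. The counting interval lay below 1 for 5 of the 6, as it did for 14.5% of all genes and for 10.1% of those in that range of reads, and above 1 for 0 of the 6, beside 15.8% and 10.7%. Without cel.1 the interval lay below 1 for 4 of 5, beside 15.2% of the genes with 50 reads in each library. These counts leave out the 4 shallow genes, of which prss59.1 had more reads in the cyproconazole library. The interval lay above 1 for 1 of the 4, prss59.1, and below 1 for 0. Of all 5188 genes not compared it lay above 1 for 150 and below 1 for 199.

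Among the serine proteases, ctrb1 (ENSDARG00000090428), which encodes the precursor of chymotrypsin, had 7.81 FPKM in the cyproconazole library and 16.1 FPKM in the control library. These rested on 84 and 185 reads, a read ratio of 0.395 (0.301 to 0.513). The level was below that in the control library by 0.96 on the log2(FPKM + 1) scale. Of the 3363 genes whose reads over both libraries lay within 1.5 times of those of ctrb1, 0.506% had a read ratio as low. In the authors' deposited table its shrunken log2 ratio is -0.33 with a standard error of 0.15. That of prss59.2 is -0.30 (0.16), of prss1 -0.20 (0.17), of cel.1 -0.19 (0.11), of cpa5 -0.18 (0.16) and of cpb1 -0.12 (0.17). The authors' ratio is above 0 for prss59.1, at 0.12 (0.09), and for ela2, at 0.02 (0.07). A pair of relatives of ctrb1 are annotated under current symbols as ctrb.2 and ctrb.3. They were far shallower, with 1 read in the cyproconazole library and 4 in the control library for ctrb.2, and 13 and 27 reads for ctrb.3, which the deposited table lists as zgc:112160. The ratio of ctrb.3 was 0.419 (0.198 to 0.839), and ctrb.2 was named after its value was seen. Summed over the 3 genes, 98 reads in the cyproconazole library and 216 in the control library gave 0.394 (0.307 to 0.503).

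Trypsin, which activates the other zymogens in the gut, is encoded by 3 of the genes. The most abundant, prss1, had 258 reads in the cyproconazole library and 300 in the control library, a read ratio of 0.748 (0.630 to 0.886). Its FPKM ratio of 0.751 was close to this, so prss1 was lower by less than 1.5-fold. For prss59.2 (ENSDARG00000073742) the level was 7.70 FPKM in the cyproconazole library and 15.2 FPKM in the control library. It had 106 and 187 reads, a read ratio of 0.493 (0.385 to 0.629), the second of the 3 genes past 1.5-fold. Among 3500 genes of like depth, 0.943% had a read ratio as low as that of prss59.2.

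The third trypsin gene, prss59.1 (ENSDARG00000079274), went the other way in reads, with 35 in the cyproconazole library and 10 in the control library, a ratio of 3.04 (1.47 to 6.89). Its levels were close, at 3.15 and 2.73 FPKM. The 2 scales part here, and why was not tested. Put as reads per FPKM, 1 FPKM of prss59.1 stood for 11.1 reads in the cyproconazole library and 3.67 in the control library. Their ratio is far from the median of 1.14 over all genes compared. For prss59.2 the same quantity was 13.8 and 12.3 reads. In the RefSeq annotation of GRCz12tu the 2 prss59 genes are direct neighbours, with 0 annotated genes between them. How reads shared by such copies were assigned is not stated in the sources used here, and the split between prss59.1 and prss59.2 is uncertain. Summed, the pair had 141 reads in the cyproconazole library and 197 in the control library, or 0.622 (0.498 to 0.776), and 10.9 and 17.9 FPKM. Shared reads that the counting may have left out would be missing from these sums too, which was not tested. All 3 trypsin genes together had 399 and 497 reads, a ratio of 0.698 (0.610 to 0.798).

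**Figure D2:**
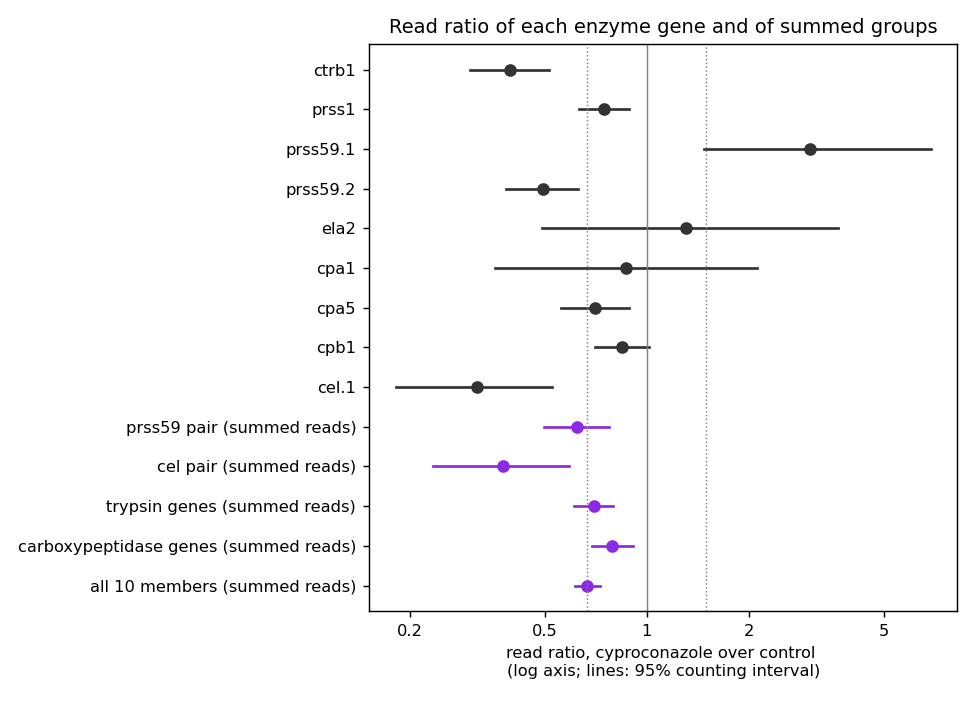
Read ratio of the cyproconazole over the control library on a log axis, with its 95% exact binomial interval, for 9 enzyme genes (black) and for summed reads (purple). Dotted lines mark 1.5-fold in either direction, and prss59.1 is the only gene of the 9 whose interval lies above 1, while the prss59 pair together is at 0.622; ela2l is left out because it had 0 and 2 reads.

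The elastase genes ela2 and ela2l had too few reads to show a difference. There were 12 reads of ela2 in the cyproconazole library and 8 in the control library, a ratio of 1.3 (0.490 to 3.68), and levels of 0.604 and 0.501 FPKM. For ela2l there were 0 and 2 reads, fewer than the 3 counts that a count of 0 allows. The 2 genes are direct neighbours in RefSeq, and their reads could be shared too.

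Of the carboxypeptidase genes, cpa5 (ENSDARG00000021339), of the A type that removes aromatic and aliphatic residues, had 4.61 FPKM in the cyproconazole library and 6.36 FPKM in the control library. It had 136 and 168 reads and a ratio of 0.704 (0.557 to 0.887), an interval below 1 without a change of 1.5-fold. The B-type gene cpb1 (ENSDARG00000045442), whose product removes basic residues, was the nearest to 1 of the genes compared. It had 243 reads in the cyproconazole library and 250 in the control library, a ratio of 0.845 (0.705 to 1.01), and 5.43 and 6.31 FPKM. A difference of cpb1 was therefore not detectable at this depth. The counting intervals of ctrb1 and cpb1 do not overlap. These genes have the lowest and the highest ratio of the enzyme genes with at least 50 reads in each library, so no conclusion is drawn from this.

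For cpa1 (ENSDARG00000030915) the scales disagreed. It had 12 reads in each library, a ratio of 0.869 (0.357 to 2.12), but levels of 1.75 FPKM in the cyproconazole library and 0.725 FPKM in the control library. Here 1 FPKM stood for 6.87 and 16.6 reads. In the authors' deposited table its log2 ratio is -0.01. Like the prss59 genes, cpa1 and cpa5 are direct neighbours in RefSeq, and together they had 148 reads in the cyproconazole library and 180 in the control library, a ratio of 0.715 (0.571 to 0.893). The 3 carboxypeptidase genes summed to 391 and 430 reads, a ratio of 0.790 (0.687 to 0.909), whereas the 4 chymotrypsin and trypsin genes summed to 483 and 682 reads, a ratio of 0.616 (0.547 to 0.693).

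**Figure D3:**
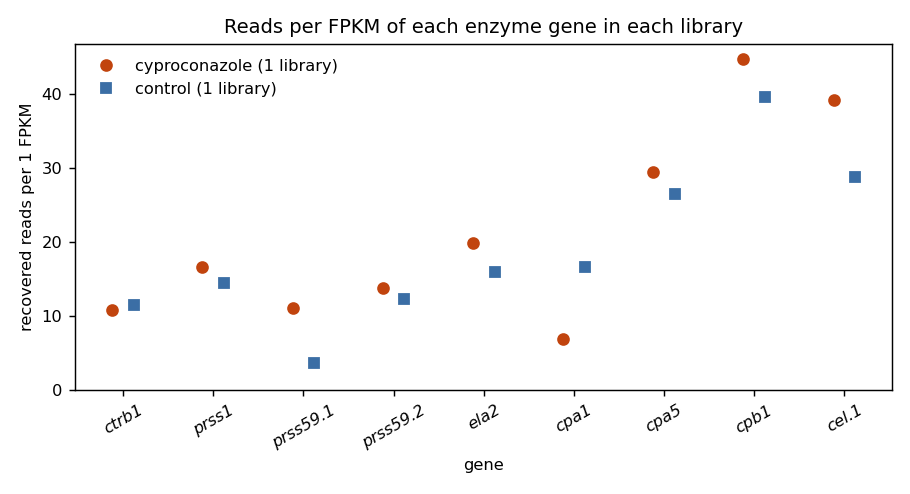
Recovered reads that stand for 1 FPKM, for 9 enzyme genes in the cyproconazole library (circles, left) and the control library (squares, right) on a linear axis. The widest gaps are those of cel.1 (39.1 and 28.8), cpa1 (6.87 and 16.6) and prss59.1 (11.1 and 3.67), and cpa1 and ctrb1 are lower in the cyproconazole library while the other 7 are higher.

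The lipase gene cel.1 (ENSDARG00000017490), which encodes a bile salt-activated carboxyl ester lipase, had the lowest read ratio of the 9 genes with a ratio. It had 21 reads in the cyproconazole library and 58 in the control library, a ratio of 0.315 (0.181 to 0.526), and 0.536 and 2.01 FPKM. Among 2058 genes of like depth, 0.777% had a ratio as low as that of cel.1. However, cel.1 passed the minimum of reads through the control library alone, where it is high. Its rank among genes chosen by that minimum therefore only describes these libraries, and no conclusion is drawn from it. The neighbouring copy cel.2 had 8 and 9 reads, a ratio of 0.773 (0.259 to 2.26), and the pair had 29 reads in the cyproconazole library and 67 in the control library, a ratio of 0.376 (0.235 to 0.590).

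Of 18 other genes of exocrine function found in the table, 6 could be compared, and 0 of these were past 1.5-fold in either direction, with a median difference of 0.03 on the log2(FPKM + 1) scale. The counting interval held 1 for the 6, while among the 12 under the minimum of reads it lay below 1 for 3 and above 1 for 0. Of all 5188 genes not compared it lay below 1 for 199 and above 1 for 150. The amylase gene amy2al1, listed as zgc:66313, had 31 reads in the cyproconazole library and 23 in the control library, a ratio of 1.17 (0.661 to 2.1), and the elastase gene cela1.6, listed as zgc:92041, 48 and 34 reads, a ratio of 1.23 (0.775 to 1.96). The ratio was 0.908 (0.736 to 1.12) for pdia2, a protein disulfide isomerase known from the mammalian pancreas, and 1.07 (0.968 to 1.17) for zgc:112285. No source used here annotates zgc:112285 or supports its place in the list, and its 949 reads in the cyproconazole library and 774 in the control library are most of the reads of the 6. Without it the median was 0.014. The 3 shallow genes with an interval below 1 were cela1.4, with 2 reads in the cyproconazole library and 13 in the control library and a ratio of 0.134 (0.0147 to 0.591), ctrb.3 (zgc:112160), described above, and amy2al2, with 0 and 5 reads and an interval that ends at 0.949. In the other direction ela3l had 22 and 9 reads, a ratio of 2.12 (0.940 to 5.24). The remaining genes of that kind (ctrl, cela1.1, cel.2, amy2a, sycn.2, spink4, dnase1 and zgc:92590) had at most 10 reads in either library.

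The regulators of pancreas and acinar cells had a median difference of 0.16 on the log2(FPKM + 1) scale over 13 of 16 genes compared, with 0 past 1.5-fold. By read ratio 1 of the 13, gata4, was higher by 1.5-fold, beside 2.86% of all 18633 genes compared by reads. The interval lay below 1 for 4 of the 13 and above 1 for 3, beside 14.5% and 15.8%. RNA of whole embryos does not tell which tissues the reads of these regulators came from, so their ratios do not describe the pancreas alone. The acinar regulator ptf1a, which is also active in hindbrain and retina, had 3.04 FPKM in the cyproconazole library and 3.18 FPKM in the control library, from 52 and 49 reads, a ratio of 0.922 (0.612 to 1.39). Its partner rbpjl had 11 and 16 reads and the acinar gene bhlha15 had 10 and 8, so that neither showed a detectable difference. The nuclear receptor gene nr5a2, which drives acinar enzyme genes in mice, was at 0.850 (0.732 to 0.987). The endoderm genes gata6 and mnx1 were higher, at 1.46 (1.24 to 1.73) and 1.48 (1.08 to 2.05), and foxa2 was at 1.23 (1.02 to 1.47). Lower were foxa3, at 0.707 (0.605 to 0.824), sox9b, at 0.814 (0.730 to 0.907), and prox1a, at 0.925 (0.856 to 0.998). The interval held 1 for pdx1, at 1.23 (0.845 to 1.79), gata4, at 1.53 (0.980 to 2.42), hnf1ba, onecut1 and hnf4a. By reads, hhex had 18 in the cyproconazole library and 5 in the control library, a ratio of 3.13 (1.12 to 10.8) under the minimum.

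Markers of neighbouring tissues were set beside the enzyme genes. Over all 18633 genes compared by reads, the interval lay below 1 for 14.5% and above 1 for 15.8%. Among genes with 79 to 558 reads these shares were 10.1% and 10.7%. Some list genes were far deeper, such as cp with 7378 reads over both libraries, where a small difference can exclude 1. In the islet list 0 of 14 genes compared passed 1.5-fold and 12 of the 14 were above 0, with a median difference of 0.17. Of all 18621 genes compared 10136 were above 0. By read ratio 11 of the 14 were above 0, beside 9627 of 18633 genes. The hormone genes ins, gcga and sst1.1 were at 1.39 (1.11 to 1.75), 1.39 (0.982 to 1.98) and 1.4 (0.982 to 2.02) by reads, while neurod1 was at 0.991 (0.944 to 1.04). The interval lay above 1 for 4 of the 14 and below 1 for 2, pax6b at 0.881 (0.828 to 0.938) and scg3 at 0.902 (0.844 to 0.963). Genes of this list can also be active in neurons, which RNA of whole embryos does not tell apart, for higher and lower genes alike. Summed, the 3 glucagon and insulin genes had 370 reads in the cyproconazole library and 246 in the control library, a ratio of 1.31 (1.11 to 1.54). All 14 islet genes compared had 12084 reads in the cyproconazole library and 10485 in the control library, before scaling to depth. Of 13 liver genes compared 0 passed 1.5-fold, with a median of -0.02, fabp10a at 0.702 (0.575 to 0.856) and cp at 1.37 (1.31 to 1.44); the interval lay below 1 for 5 and above 1 for 4. Of 8 genes compared in the list for gut absorptive cells, 2 were lower by 1.5-fold or more on the log2(FPKM + 1) scale and 1 by read ratio. Over all genes compared these shares were 1.71% and 3.13%. The median of the 8 was -0.23 on either scale. Lower on both was apoa4a, with 50 reads in the cyproconazole library and 152 in the control library, a ratio of 0.286 (0.203 to 0.396). By FPKM alone it was joined by vil1, at 0.723 (0.641 to 0.815) by reads. The interval lay below 1 for 5 of the 8, among them fabp2 at 0.810 (0.736 to 0.893) and anpepb at 0.706 (0.542 to 0.917), and above 1 for 0. It held 1 for the others, the most abundant gene apoa4b.1, at 0.974, cdx1b, at 1.06 (0.837 to 1.34), and agr2, at 1.06 (0.974 to 1.14). In the gut agr2 is known from mucus-secreting rather than absorptive cells, so its place in this list is doubtful. On either scale 6 of the 8 were below 0 and 2 above. Another 6 genes of this list were under the minimum of reads, with the interval below 1 for 0 and above 1 for 0. In the short duct list 0 of 5 passed 1.5-fold on the log2(FPKM + 1) scale, with a median of 0.12, and 1 was lower by read ratio. That was the chloride channel gene cftr, at 0.576 (0.396 to 0.831) by reads and 0.573 by FPKM without the added 1. In this list the interval lay below 1 for 2 genes, cftr and sox9b. It lay above 1 for 2, nkx6.1 at 1.21 (1.04 to 1.42) and anxa4 at 1.08 (1.01 to 1.15). Genes of the liver, gut and duct lists can be active in other tissues of the whole embryo too, so their ratios do not describe these tissues alone. Whether differences in the amount of these tissues play a part in the lower enzyme genes was not tested.

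**Figure D4:**
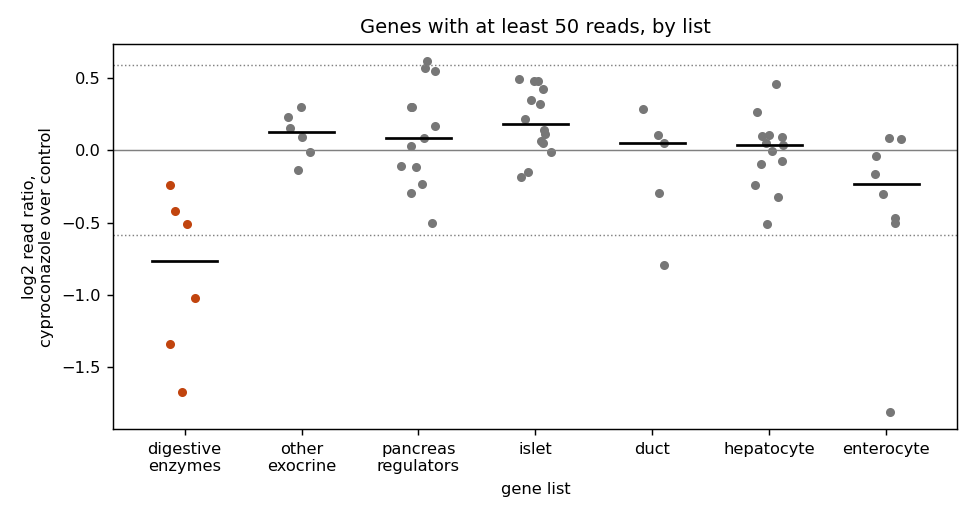
Log2 read ratio of the cyproconazole over the control library for genes with at least 50 reads, by list, with the median as a bar and dotted lines at 1.5-fold. All 6 enzyme genes compared lie below 0, the other exocrine genes lie between -0.14 and 0.30, and the lowest gut absorptive cell gene is apoa4a.

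Related proteases other than digestive enzymes and genes of protein export moved both ways, by less than 1.5-fold. Of 12 such proteases and carboxypeptidases the median difference was -0.01, and the interval lay below 1 for 3 and above 1 for 2. The largest differences were those of cpm, at 1.21 (1.05 to 1.4) by reads and 1.48 by FPKM, tmprss2, at 1.24 (0.956 to 1.62), and tmprss4a, at 0.773 (0.668 to 0.895). The smallest were those of the carboxypeptidase gene cpa6, with 48 reads in the cyproconazole library and 49 in the control library, and the plasminogen gene plg, at 0.944 (0.883 to 1.01). Of 19 genes of protein export the median difference was -0.06, with the interval below 1 for 6 and above 1 for 3. For all genes compared by reads the interval lay below 1 for 14.5% and above 1 for 15.8%. In the export list, the ratios by reads are given next. By reads the 19 export genes ran between creld2, at 0.818 (0.690 to 0.969), and the signal peptidase gene spcs3, at 1.15 (1.04 to 1.27). The other large differences by FPKM were those of pdia6, at 0.907 (0.849 to 0.969) by reads, and rab3da, a gene of secretory granules, at 0.819 (0.614 to 1.09).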

How the data were processed

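The authors deposited 1 table with an FPKM value per library and gene, per the file headers. It also gives the mean normalized count of each gene (a signal, scaled by size factors), a shrunken log2 ratio with its standard error, a test score and a p-value from the authors' comparison; the p-values come from single libraries and support no test here. The submitters' processing notes name Cufflinks 2.1.1, HTSeq 0.6.1, Picard 1.29, SAMtools, TopHat2 2.0.4 and the build GRCz10, without roles. Annotation, strand setting and handling of shared reads are not stated in the sources used here.

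Whole reads were recovered from the mean counts, which are whole multiples of a common step within 0.01 of it. Among the possible read pairs, that which gave the deposited standard error to within 1e-05 was taken, provided that no second pair came within 10 times its miss; a pair without rivals was taken as it stood. Reads were so obtained for 23790 genes (99.9%). For the enzyme genes 1 to 9 pairs were possible, and the kept pair matched within 5e-08. The recovery was tested on data simulated with the same model, which the deposited table does not state. Libraries were scaled with TMM factors, a trimmed mean of log ratios (30% of log ratios and 5% of expression trimmed; log2 offset 0.0041), with Clopper-Pearson intervals at 95%, in Python 3.11.15, NumPy 2.4.6, pandas 2.3.3 and SciPy 1.17.1.

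An FPKM listed at or next to 0 can be a failed estimate, so such genes (560, in either library or both) were left out of FPKM comparisons. The members and the 8 other gene lists were chosen with earlier results of these data known. Named were the 10 members, the genes of the 2 other exocrine lists (values of some are not reported here), and from each remaining list genes among the 3 with the largest and 2 with the smallest difference and the most abundant one; pax6b, scg3, anpepb and spcs3 were added after their values were seen. List genes with another symbol in the table were matched through the reference names or RefSeq synonyms. Planned descriptions of protein and promoter sequences were not made, since no sequence was used here.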

Additional observations from a re-analysis of the deposited data

How the results depend on the processing

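No paired analysis was possible because a single library stands for each group. Read recovery gave 6 of the 10 enzyme genes at least 50 reads, and the other 4 are limited by depth. The lower call of 3 genes (0 higher) on the log2(FPKM + 1) scale was 0 lower at a 2-fold threshold on that scale. By reads these 3 were at 0.395 (ctrb1), 0.493 (prss59.2) and 0.315 (cel.1). Their FPKM ratios without an added value were 0.486, 0.507 and 0.266. The lower count was 5 when a read interval below 1 was the rule. It was 2 with 5 added to each FPKM, with at least 200 reads, with at least 50 reads in each library and without the prss59 and elastase genes. The higher count was 1 without a minimum of reads, for cpa1 by FPKM and for prss59.1 by reads. The median difference of -0.64 was -0.33 with 5 added to each FPKM, -0.39 with at least 200 reads, with at least 50 in each library, without a minimum and without the prss59 and elastase genes, and -0.42 by reads without a minimum. The regulators' median of 0.16 was 0.0907 with 5 added, 0.0835 with at least 200 reads and 0.0830, 0.0871 and 0.0804 by reads scaled by the trimmed mean, total reads and deposited size factors. Fewer genes or a larger added value are part of these settings; beyond that the cause was not tested. The other values, 56 in all with those counts of 2, moved by less than the counting error or by at most 1.5 times in count. The summed ratio lay between 0.631, by FPKM without prss1, and 0.719, by FPKM or reads without ctrb1, under the settings run. An added FPKM value and the minimum of 50 reads do not apply to the summed ratio. The settings that sum FPKM or reads without ctrb1 or prss1 or leave out zgc:112285, the interval rule, 50 reads in each library and reads without a minimum were chosen after the data were seen.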
